A study of Arabidopsis thaliana with 4 samples.

Results

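The RNA silencing genes described here are 10 genes of *Arabidopsis thaliana* that were chosen by name: the Argonautes *AGO1* (AT1G48410), *AGO2* (AT1G31280), and *AGO4* (AT2G27040), the Dicers *DCL1* (AT1G01040), *DCL2* (AT3G03300), *DCL3* (AT3G43920), and *DCL4* (AT5G20320), and the factors that make double-stranded RNA, *RDR1* (AT1G14790), *RDR6* (AT3G49500), and *SGS3* (AT5G23570). They are 10 of the 22409 loci with values, 21284 of which are annotated genes. Their expression was examined in 4 genotypes, which were wild type (WT, the accession Col-0), the single mutants *upf1-5* and *upf3-1*, and the double mutant *upf1-5 upf3-1*. Both mutations are T-DNA insertions in the Col-0 background, and the double mutant came from a cross of the single mutants. All seedlings were grown at 23°C in long days on MS plates and were collected at ZT16, that is, 16 h after the lights came on. Many whole seedlings were pooled for each RNA sample, and 1 library was sequenced for each genotype. Thus, no difference below has a replicate check, and no test was made. In whole seedlings, fewer cells of a type and less RNA per cell cannot be told apart.

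In RNA silencing, Dicer enzymes cut double-stranded RNA into small RNAs, and Argonaute proteins carry these to RNAs of matching sequence, which are then cleaved, blocked in translation, or, in the nucleus, marked together with their DNA. An RNA-dependent RNA polymerase such as RDR6 copies an aberrant RNA into double-stranded RNA and thereby feeds the Dicers. UPF1 and UPF3 act in nonsense-mediated mRNA decay (NMD), which removes mRNAs whose translation ends too early or before an unusually long 3′ end. Both pathways can act on the same aberrant RNAs in plants, so that the genes of one are of interest when the other is impaired. The comparisons ask whether the mRNA levels of the silencing genes differ between seedlings with and without these NMD factors.

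The libraries bore the marks of their genotypes. *UPF1* was at 23.9 FPKM in WT and at 3.18, 30.6, and 8.27 FPKM in *upf1-5*, *upf3-1*, and the double mutant. FPKM scales the fragments of a gene to the length of its transcript and the size of the library. *UPF3* was at 20.8, 33.7, 6.36, and 7.10 FPKM in the same order of libraries, which is used below wherever 4 values are given. The 3 marker genes of green tissue summed to 26361 FPKM in WT and to 23282, 13566, and 12600 FPKM in *upf1-5*, *upf3-1*, and the double mutant, whereas the 3 markers of roots and root hairs summed to 4.54, 9.27, 58.7, and 27.5 FPKM. Within the root sum, *CEP5* was at 0.359, 4.27, 41.2, and 6.59 FPKM. *EXPA7*, at 3.20, 3.94, 14.6, and 16.8 FPKM, and *COBL9*, at 0.978, 1.07, 2.95, and 4.06 FPKM, were highest in the double mutant instead. The 3 markers of dividing cells summed to 42.4, 68.4, 84.5, and 66.7 FPKM. Of the 3 seed genes, *CRU3* alone was listed in WT and *upf1-5*, and together they summed to 0.265, 0.0805, 6.58, and 25.8 FPKM. These marker sums thus moved with genotype, and their part in the values below was not tested. Sequencing depth is unknown, since the table holds no read counts.

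Several of the silencing genes are themselves under the control of microRNAs, and 3 of these pairings are well known in Arabidopsis. They are miR168 with the *AGO1* mRNA, miR162 with the *DCL1* mRNA, and miR403 with the *AGO2* mRNA. The microRNAs and the matching stretches of the mRNAs are shown because they mark members whose mRNAs are targets of microRNAs. The mature microRNAs were read from the TAIR10.1 reference of RefSeq, with the seed, bases 2 to 8, in capitals.
miR168a, chromosome 4, 10578652 to 10578672, plus strand: uCGCUUGGugcaggucgggaa
miR162a, chromosome 5, 2634936 to 2634956, minus strand: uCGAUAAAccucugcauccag
miR403-3p, chromosome 2, 19415154 to 19415174, plus strand: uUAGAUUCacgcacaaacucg
The 3 seeds differ from each other. The best matching stretch among the members is given next for each microRNA, written 5′ to 3′ as the sense strand of the gene. Bases that are exactly complementary to the microRNA are in capitals and others in lower case.
*AGO1* for miR168a, chromosome 1, 17891529 to 17891549, minus strand: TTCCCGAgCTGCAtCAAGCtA
*DCL1* for miR162a, chromosome 1, 27522 to 27627, plus strand: CTGGATGCAGAGGTaTTATCGA
*AGO2* for miR403-3p, chromosome 1, 11185223 to 11185243, plus strand: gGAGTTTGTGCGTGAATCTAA
The *AGO1* stretch lies in the coding sequence, in exon 2 of 22, and has 3 mismatches. The middle mismatch is a U of the mRNA that faces a G, a wobble pair that was counted as a mismatch. The *DCL1* stretch is coding too and is split between exons 12 and 13 of 20, so that it exists only in spliced RNA. Its 21 paired bases have 0 mismatches, but there is 1 extra base on the mRNA side. The *AGO2* stretch lies in the 3′ UTR, in exon 3 of 3, and has 1 mismatch, at the end that faces the last base of the microRNA. With a mismatch or an extra base each counted as 1, 0 other genes of 27444 had a transcript that matched any of these microRNAs as well, and the next member had a count of 6 for each microRNA. The precursor of miR162a, at the locus *MIR162A* (AT5G08185), had a level of 31.7 FPKM in WT and 36.2, 48.4, and 50.8 FPKM in *upf1-5*, *upf3-1*, and the double mutant, the last of which is 1.60 times the WT level and under the 2-fold threshold. Of the 5 precursor loci of these microRNAs that were listed, 1 had a value, so that none was seen for miR168 or miR403. The level of a precursor need not be that of the mature microRNA.

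All 10 silencing genes were expressed in all 4 libraries, at 1.65 FPKM or more. *AGO1* had the highest level in every library, and *DCL3* the lowest. In WT, the order by FPKM, which is per length and thus comparable between genes, was *AGO1*, *RDR6*, *AGO4*, *DCL1*, *DCL2*, *SGS3*, *DCL4*, *AGO2*, *RDR1*, and *DCL3*. The order was not the same in the double mutant, where *RDR6* stood behind *AGO4* and *DCL2*. Without replicates, it cannot be said which neighbours in these orders differ beyond the spread between samples. Summed over the 10 genes, the level was 124 FPKM in WT and 114, 104, and 121 FPKM in *upf1-5*, *upf3-1*, and the double mutant.

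**Figure D1:**
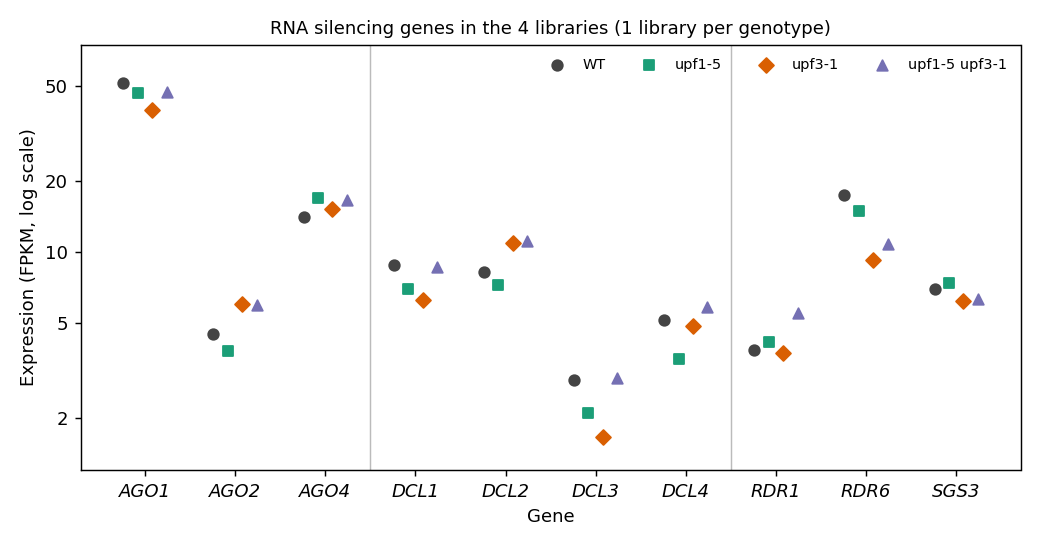
Expression of the 10 silencing genes in FPKM, on a log axis, in the libraries of WT, *upf1-5*, *upf3-1*, and the double mutant, with 1 point per library and no error bar because there is 1 library per genotype. *AGO1* lies between 39.8 and 51.9 FPKM, *DCL3* between 1.65 and 2.95 FPKM, and *RDR6* is at 17.3 FPKM in WT and 9.21 FPKM in *upf3-1*.

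A locus was counted as changed between libraries when its FPKM differed 2-fold or more and was at least 1 in at least 1 of them. By this rule, 0 of the 10 silencing genes changed in *upf1-5* compared with WT, where 10% of the 19602 loci tested did (7.64% up-regulated and 2.40% down-regulated). In *upf3-1*, 0 of 10 changed, compared with 21.5% of 19789 loci (14.6% up-regulated and 6.91% down-regulated). In the double mutant, 0 of 10 changed, compared with 21.9% of 20008 loci (15.0% up-regulated and 6.91% down-regulated). Among loci whose mean FPKM lies within the range of the silencing genes, a restriction chosen after seeing the data, the share that changed was 8.17%, 18.6%, and 18.0% for *upf1-5*, *upf3-1*, and the double mutant. The 3 comparisons share the WT library. Between mutants, 0 of 10 genes changed as well, whereas 14.1% of loci changed between the double mutant and *upf1-5*, 11.4% between the double mutant and *upf3-1*, and 14.1% between *upf3-1* and *upf1-5*. With 10 genes, a background of 10% amounts to a single gene, so that the absence of changed genes in *upf1-5* says little. The shares of 18.6% and 18.0% also amount to few of 10 genes. Thus, 0 of 10 says little in *upf3-1* and the double mutant too.

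Argonautes are the proteins that hold the small RNA. *AGO1*, which carries most microRNAs, was at 51.9 FPKM in WT and at 46.9, 39.8, and 47.3 FPKM in *upf1-5*, *upf3-1*, and the double mutant. Its level was thus somewhat lower in every mutant than in WT, at 0.903, 0.767, and 0.912 times the WT level. *AGO2*, which takes part in defence against viruses and bacteria, was at 4.49, 3.81, 6.02, and 6.0 FPKM in the same order. Hence, both libraries with the *upf3-1* mutation were above WT, by 1.34 times each, and *upf1-5* was below it. *AGO4*, which guides DNA methylation with small RNAs made by DCL3, was at 14.1, 16.9, 15.1, and 16.5 FPKM and had the narrowest spread of the 3, as its highest level was 1.2 times its lowest. The summed level of the 3 Argonautes was 70.4 FPKM in WT and 67.6, 60.9, and 69.8 FPKM in *upf1-5*, *upf3-1*, and the double mutant.

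The 4 Dicers, which cut the double-stranded RNA, did not share a single pattern. *DCL1*, which makes microRNAs, was at 8.81 FPKM in WT and at 6.95, 6.25, and 8.63 FPKM in *upf1-5*, *upf3-1*, and the double mutant. Both single mutants were below WT, at 0.789 and 0.710 times its level, while the double mutant was next to WT, at 0.979 times, a ratio that reached 1.06 when the libraries were scaled to reference genes. *DCL3*, which makes the small RNAs that direct DNA methylation, had the same order of libraries for the single mutants, with 2.87, 2.08, 1.65, and 2.95 FPKM. Its level in *upf3-1* was 0.574 times that in WT, and the double mutant was again next to WT, at 1.02 times. *DCL4*, which makes trans-acting siRNAs (tasiRNAs) and siRNAs from viruses, was at 5.17, 3.55, 4.85, and 5.87 FPKM. Its lowest level was in *upf1-5*, at 0.686 times WT, the farthest from WT of the 10 genes in that mutant. *DCL2*, whose longer siRNAs act in antiviral silencing and can start secondary siRNAs, was at 8.24, 7.23, 10.9, and 11.1 FPKM. It resembled *AGO2* in that both libraries with *upf3-1* were above WT, at 1.33 and 1.35 times. Summed over the 4 Dicers, the level was 25.1 FPKM in WT and 19.8, 23.7, and 28.6 FPKM in *upf1-5*, *upf3-1*, and the double mutant.

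*DCL1*, *DCL2*, and *DCL3* overlap other annotated genes. *DCL1* hosts the microRNA gene AT1G01046 and overlaps AT1G01050 on the other strand over 58 nt and a long non-coding RNA. *DCL2* overlaps AT3G03305 on the same strand over 847 nt. These neighbours had no value of their own, and reads of overlapping genes on the same strand cannot be told apart. *DCL3* overlaps AT3G43930 on the other strand over 43 nt. That gene had no value in WT and was at 0.227, 1.60, and 0.810 FPKM in *upf1-5*, *upf3-1*, and the double mutant. A link between its level and that of *DCL3* was not tested.

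Among the factors upstream of the Dicers, *RDR6* had the largest difference from WT. The RDR6 polymerase makes the double-stranded precursors of tasiRNAs and of siRNAs from transgenes. It was at 17.3 FPKM in WT and at 14.9, 9.21, and 10.9 FPKM in *upf1-5*, *upf3-1*, and the double mutant. Thus, both libraries with *upf3-1* were below both libraries without it. The level in *upf3-1* was 0.532 times that in WT, a 1.88-fold difference that came closest to the 2-fold threshold of all 10 genes and 6 pairs of libraries, and the double mutant was at 0.627 times WT. *SGS3*, which encodes a partner of RDR6 that protects its template RNA, was at 7.01, 7.43, 6.21, and 6.32 FPKM. Its ratios to WT lay between 0.886 and 1.06, and its libraries divided by *upf3-1* as those of *RDR6* did. *AGO2* and *DCL2* divided in the opposite direction. How many of all loci divide by *upf3-1* in either direction was not counted. Hence, these divisions cannot be read as particular to these genes. *RDR1*, a polymerase that responds to salicylic acid and acts in antiviral silencing, was at 3.86, 4.18, 3.76, and 5.52 FPKM. Its level in the double mutant was 1.43 times that in WT, while the *upf3-1* ratio of 0.972 was on either side of 1 depending on the scaling. The 3′ end of *RDR1* overlaps AT1G14780 on the other strand over 192 nt, and AT1G14780 was at 0.929, 1.64, 2.31, and 4.30 FPKM. As the counting is not stated to have used the strand, reads of this overlap cannot be assigned with certainty. *RDR1*, *RDR6*, and *SGS3* summed to 28.2, 26.5, 19.2, and 22.7 FPKM.

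Compared with all loci, the 10 genes had a median log2 ratio to WT of -0.20, -0.13, and 0.11 for *upf1-5*, *upf3-1*, and the double mutant, whereas the medians of all loci were 0, -0.01, and 0.01. In *upf1-5*, 3 genes were above WT and 7 below, and 6 of the 10 lay between the quartiles of all loci, which were -0.23 and 0.31. In *upf3-1*, 3 were above and 7 below, including *RDR1*, whose direction turned with the scaling, and 7 lay between the quartiles of -0.43 and 0.51. In the double mutant, 6 were above and 4 below, including *DCL1*, whose direction turned likewise, and 9 lay between the quartiles of -0.41 and 0.52, *RDR6* being the exception. The median fold in either direction was 1.17 for the 10 genes and 1.2 for all loci in *upf1-5*, 1.31 and 1.38 in *upf3-1*, and 1.15 and 1.37 in the double mutant. With a threshold of 1.5-fold, *RDR6* and *DCL3* would be counted in *upf3-1* and *RDR6* in the double mutant, that is, 2 of 10 and 1 of 10, against 40.4% and 40.6% of loci.

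**Figure D2:**
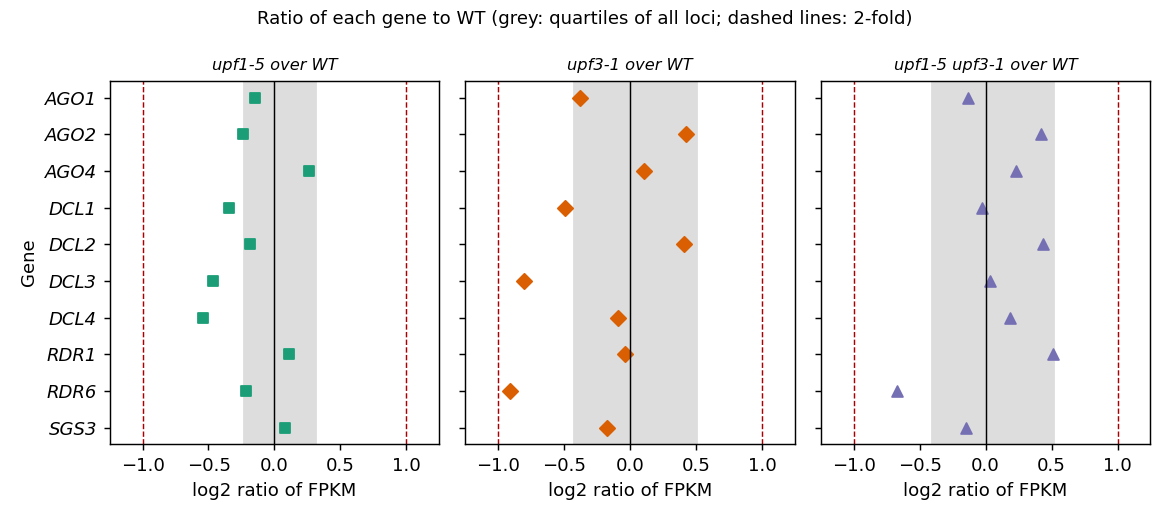
log2 ratio of FPKM in each mutant over WT for the 10 silencing genes, with 1 point per gene, grey bands for the quartiles of all loci, and dashed lines at 2-fold. No gene passes a dashed line, *RDR6* in *upf3-1* comes nearest with -0.91, and 9 of 10 genes lie within the band in the double mutant. The side of *DCL1* in the double mutant and of *RDR1* in *upf3-1* depends on the scaling of the libraries.

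The same mutation can be followed in 2 backgrounds, since *upf1-5* was compared with WT and the double mutant with *upf3-1*. These comparisons have no library in common. *DCL3* was at 0.725 times the WT level in *upf1-5*, but at 1.79 times the *upf3-1* level in the double mutant, so that the second ratio was 2.46 times the first. *DCL4* had ratios of 0.686 and 1.21, and *DCL1* had ratios of 0.789 and 1.38. Thus, 3 of the 4 Dicers were lower with *upf1-5* in the WT background and higher with it in the *upf3-1* background, by at least 1.2-fold each way. *DCL1* and *DCL4* stood near that limit, as scaling to the reference genes brought the first ratio of *DCL1* to 0.839 and scaling to the median ratio the second ratio of *DCL4* to 1.197. This count of 3 of 10 genes stands beside 15.0% of the 20048 loci with values in all 4 libraries. *RDR6* had ratios of 0.860 and 1.18 and *AGO1* of 0.903 and 1.19, which differ in the same sense but do not pass 1.2-fold both times. *AGO4*, *RDR1*, and *SGS3* were above 1 in both backgrounds, with 1.2 and 1.09, 1.08 and 1.47, and 1.06 and 1.02. *DCL2* had ratios of 0.878 and 1.02, and *AGO2* of 0.850 and 0.996, the last of which lies on either side of 1 depending on the scaling. Apart from *AGO2*, all of the 10 genes were higher in the double mutant than in *upf3-1*, with a median log2 ratio of 0.24 compared with 0.0032 for all loci. However, *DCL2* and *SGS3* were only at 1.02 times, and 7 of the 10 lay between the quartiles of all loci, which were -0.29 and 0.30. The share of all loci that were higher was not counted.

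For *upf3-1*, the ratio to WT was set beside that of the double mutant to *upf1-5*. *RDR6* was lower with *upf3-1* both times, at 0.532 and 0.728 times, and *SGS3* too, at 0.886 and 0.850 times. *AGO2* was higher both times, at 1.34 and 1.57 times, and so was *DCL2*, at 1.33 and 1.54 times. By contrast, *DCL1* had ratios of 0.710 and 1.24 and *DCL3* of 0.574 and 1.41, which point in opposite directions by at least 1.2-fold, as they did at 9.97% of loci. *DCL4* had ratios of 0.938 and 1.65, the latter being the largest fold of the 10 genes between the double mutant and *upf1-5*. *AGO1* had 0.767 and 1.01, *AGO4* had 1.08 and 0.977 with the last depending on the scaling, and *RDR1* had 0.972, likewise dependent, and 1.32. In the ratio of the second to the first ratio, which is the same number for both mutations, 8 of 10 genes were above 1, with a median log2 value of 0.42, whereas the median of all loci was -0.02 and 48.4% of them were above 0. All 4 libraries enter that number once each, and the difference between backgrounds was not tested.

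**Figure D3:**
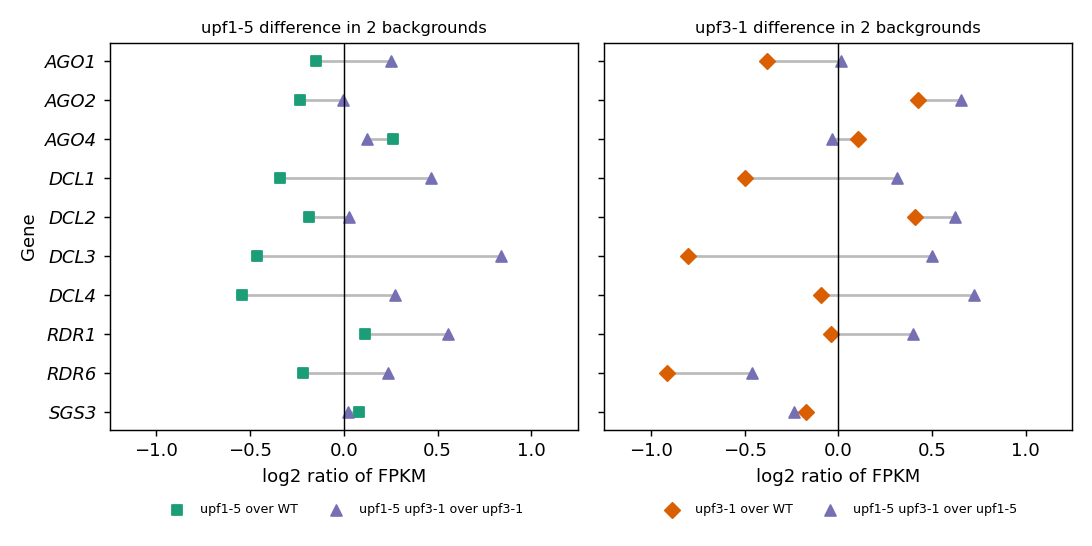
log2 ratio of FPKM for the *upf1-5* mutation (left) and the *upf3-1* mutation (right), each measured in the WT background and in the background of the other mutant, with 1 pair of points per gene joined by a line. *DCL1*, *DCL3*, and *DCL4* are left of 0 with *upf1-5* in WT and right of it in *upf3-1*, *RDR6* is left of 0 with *upf3-1* in both backgrounds, and *AGO2* and *DCL2* are right of 0 with *upf3-1* in both.

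The wider silencing machinery was examined through 52 other genes of the pathway and of RNA decay, of which 50 had a value. In *upf1-5*, 48 of them passed the filter on low values, and 0 were up-regulated and 1 was down-regulated. In *upf3-1* and in the double mutant, 49 passed, and 1 was up-regulated and 1 down-regulated in each. Their median log2 ratios to WT were -0.04, -0.11, and -0.01. The gene that was down-regulated in all 3 mutants was *AGO3* (AT1G31290), the tandem neighbour of *AGO2* and similar to it in sequence, at 1.62 FPKM in WT and 0.427, 0.180, and 0.260 FPKM in *upf1-5*, *upf3-1*, and the double mutant. These values are low and near the filter, and reads of such similar copies may be assigned uncertainly. *AGO6*, which acts in DNA methylation like *AGO4*, was up-regulated in both libraries with *upf3-1*, at 0.668, 0.985, 1.53, and 1.56 FPKM, which is 2.29 and 2.34 times the WT level in *upf3-1* and the double mutant. *AGO4* itself was at 1.08 and 1.17 times WT there.

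Of the partners of the 10 genes named next, none passed 2-fold in any mutant. HYL1 assists DCL1 in microRNA processing, and its gene was at 6.5, 6.90, 6.01, and 4.85 FPKM in WT, *upf1-5*, *upf3-1*, and the double mutant, whereas *SE*, which encodes another partner of DCL1, was at 26.2, 26.0, 24.8, and 21.9 FPKM. *DRB4*, whose product assists DCL4, was at 12.6, 12.9, 14.02, and 15.3 FPKM, while *DCL4* was lowest in *upf1-5*. The related genes *DRB2*, *DRB3*, and *DRB5* encode further proteins of this family that bind double-stranded RNA. *DRB2* was at 30.8, 25.5, 26.3, and 23.4 FPKM, *DRB3* at 26.7, 22.5, 23.5, and 27.5 FPKM, and *DRB5* at 14.3, 11.6, 11.9, and 12.1 FPKM. *HEN1*, which encodes the methylase that protects small RNAs at their 3′ ends, was at 5.21, 5.04, 4.65, and 5.11 FPKM. *RDR2*, whose product feeds DCL3, was at 2.13, 1.93, 1.85, and 2.01 FPKM, and *NRPD1*, which encodes the largest subunit of the polymerase upstream of it, at 1.39, 1.70, 1.86, and 2.03 FPKM. In the *RDR6* branch, *AGO7*, whose product carries miR390 to the *TAS3* precursor, was at 3.60, 3.67, 2.37, and 3.47 FPKM. *SDE5*, which acts with *RDR6*, was at 7.23, 9.96, 12.8, and 12.9 FPKM, that is, at 1.38, 1.77, and 1.78 times the WT level, whereas *RDR6* was below WT in each mutant. The helicase gene *SDE3* was at 4.69, 4.70, 5.25, and 3.32 FPKM. The exonuclease XRN4 removes uncapped RNA that could otherwise become a template of RDR6, and its gene was at 14.5, 15.9, 17.3, and 20.5 FPKM.

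**Figure D4:**
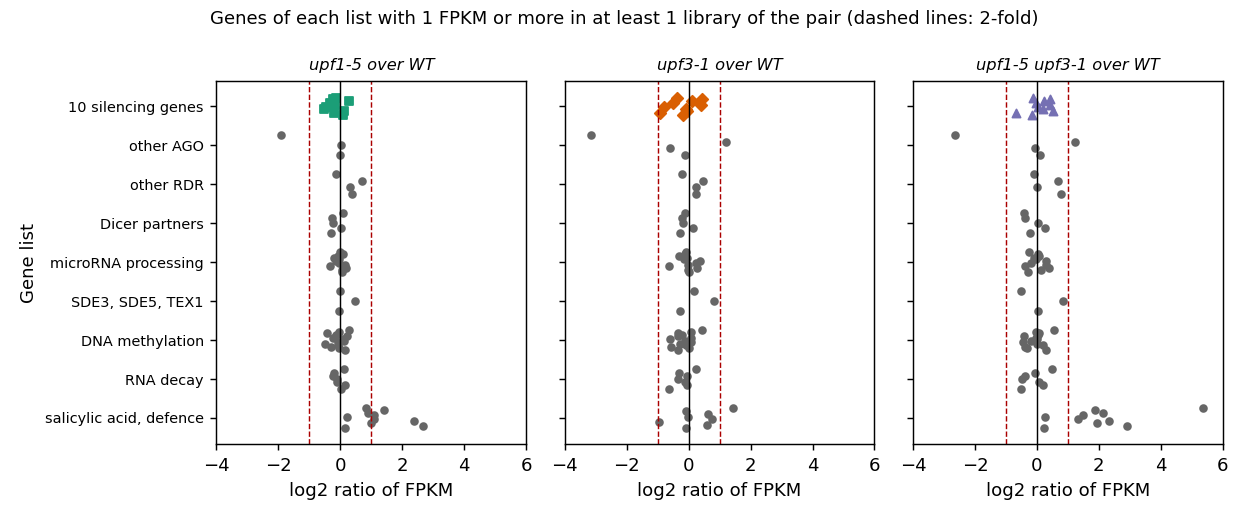
log2 ratio of FPKM over WT in the 3 mutants for the 10 silencing genes (top, coloured) and for the genes of 8 other lists (grey), with 1 point per gene that has 1 FPKM or more in WT or the mutant, and dashed lines at 2-fold. *AGO3* is left of the lower line in all mutants, *AGO6* is right of the upper line in *upf3-1* and the double mutant, and salicylic acid and defence genes are past the upper line in 5, 1, and 8 cases.

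The RDR6 branch was followed through its precursors and targets. These are the *TAS* transcripts, non-coding RNAs that RDR6, SGS3, and DCL4 turn into tasiRNAs, and the *ARF* genes that tasiRNAs from *TAS3* repress. Of these 9 genes, 0 of the 8 that passed the filter changed in *upf1-5*, and 1 of 9 was up-regulated in *upf3-1* and in the double mutant. It was *TAS4* (AT3G25795), at 0.274 FPKM in WT and at 0.122, 8.71, and 1.80 FPKM in *upf1-5*, *upf3-1*, and the double mutant, with the first 2 values too low to give a reliable fold. *TAS3* was at 248, 245, 264, and 143 FPKM, which is 0.577 times WT in the double mutant. *TAS1A* was at 68.5, 62.6, 76.8, and 44.3 FPKM, *TAS1B* at 46.2, 36.02, 36.6, and 29.3 FPKM, and *TAS2* at 63.4, 46.9, 57.1, and 39.9 FPKM. *TAS1C* was at 41.2, 37.2, 53.5, and 36.9 FPKM. Thus, all 5 of these transcripts were below WT in the double mutant, at 0.577 to 0.895 times, yet none reached 2-fold. *RDR6* was below WT there too, at 0.627 times, and lower still with *upf3-1* alone, at 0.532 times. A link between *RDR6* and the *TAS* levels was not tested. The targets were at 66.1, 60.4, 59.7, and 61.5 FPKM for *ARF2*, 16.1, 15.5, 11.3, and 11.3 FPKM for *ARF3*, and 27.5, 19.8, 21.2, and 26.0 FPKM for *ARF4*. *ARF3* had the same division of libraries as *RDR6*, with both *upf3-1* libraries at 0.703 and 0.704 times WT. The share of all loci that divide in this way was not counted. Small RNAs themselves were not measured, so that these are levels of precursors and targets only.

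**Figure D5:**
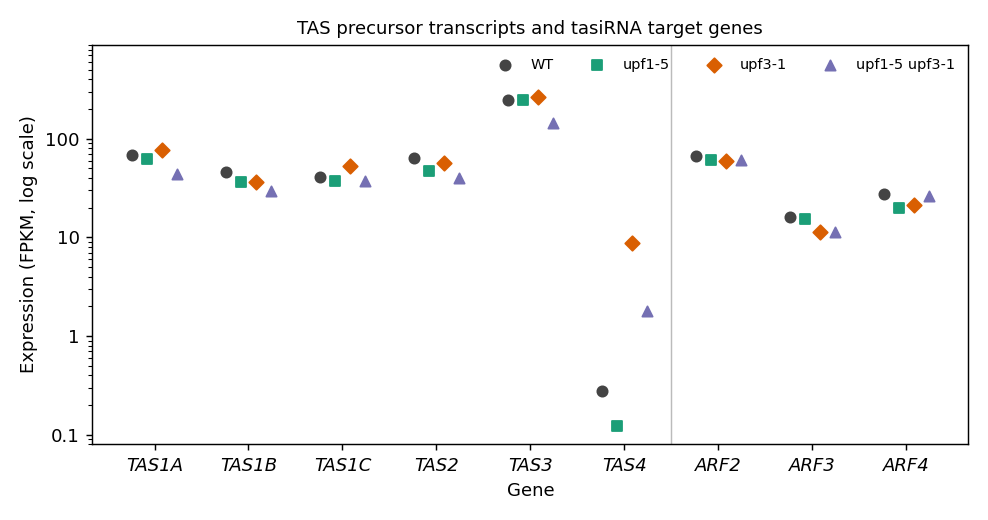
Expression in FPKM, on a log axis, of 6 *TAS* precursor transcripts and 3 *ARF* genes that are targets of tasiRNAs, with 1 point per library. *TAS4* spans 0.122 to 8.71 FPKM, *TAS3* is at 143 FPKM in the double mutant and at 245 to 264 FPKM elsewhere, and the *ARF* genes stay between 11.3 and 66.1 FPKM.

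Because *AGO2*, *DCL2*, and *RDR1* act in defence, they were set beside 10 genes of salicylic acid synthesis and defence. Of these, 5 of 10 were up-regulated in *upf1-5*, 1 of 8 in *upf3-1*, and 8 of 10 in the double mutant. The shares of all loci that were up-regulated were 7.64%, 14.6%, and 15.0% in the same order, so that the count in *upf3-1* is near the share of all loci. The list was chosen with earlier results of these data known, so that its counts are a description only. *WRKY70*, a transcription factor gene of the salicylic acid response, was at 4.40, 28.0, 6.58, and 33.4 FPKM, and *PR1*, its classical marker, at 1.60, 2.87, 4.31, and 65.5 FPKM. *ICS1*, which encodes the main enzyme of salicylic acid synthesis, was at 5.24, 11.2, 8.12, and 14.8 FPKM. *SARD1* and *CBP60G* encode transcription factors that switch on *ICS1*, and they were at 0.374, 1.93, 0.509, and 1.87 FPKM and at 2.85, 5.63, 1.47, and 11.04 FPKM. *PAD4*, a regulator of defence upstream of salicylic acid, was at 8.44, 17.96, 14.3, and 21.01 FPKM. The pathogenesis-related genes *PR2* and *PR5* were at 0.447, 1.19, 0.139, and 1.65 FPKM and at 5.62, 10.5, 5.28, and 24.9 FPKM. All 8 of these genes were up-regulated in the double mutant, and the 5 in *upf1-5* were *WRKY70*, *ICS1*, *SARD1*, *PAD4*, and *PR2*. *SARD1* and *PR2* were below 1 FPKM in WT, so that their folds are uncertain. The other genes of the list, *EDS1* and *NPR1*, changed in no mutant. *EDS1* was at 1.17, 0.991, and 1.21 times WT and *NPR1* at 1.11, 0.951, and 1.17 times. *WRKY70* and *ICS1* were higher in both libraries with *upf1-5* than in the others. *AGO2* and *DCL2* were higher in both libraries with *upf3-1*, and *RDR1* had its highest level in the double mutant. The shares of all loci with such divisions were not counted. In *upf1-5*, with 5 of the defence genes up-regulated, *AGO2* and *DCL2* were at 0.850 and 0.878 times WT. In the double mutant, with 8 up-regulated, they were at 1.34 and 1.35 times. Whether the silencing genes and the defence genes are linked here was not tested.

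Finally, the annotated transcripts of the 10 genes were searched for features that can make an mRNA a substrate of NMD. At least 1 transcript model with such a feature was found for 5 of 10 genes, compared with 36.6% of 27444 protein-coding genes. A stop codon that is followed by an exon junction at a distance of over 50 nt occurs in AT1G48410.3 of *AGO1*, 52 nt before it, and in AT5G23570.2 and AT5G23570.4 of *SGS3*, 263 nt before it, that is, in 2 members and in 7.68% of all genes. A 3′ UTR of 350 nt or more occurs in 3 members, namely *DCL4* with 359 nt, *RDR1* with 356 nt, and *SGS3* with 747 nt, and in 26.8% of genes. An upstream open reading frame of 35 codons or more occurs in *RDR1* with 43 codons and in AT3G03300.1 of *DCL2* with 159 codons, and in 14.3% of genes. *RDR6* has 1 of 32 codons, just under the limit. The values are sums over all transcripts of a gene, so that a rise of a minor transcript alone would hardly be seen. *SGS3* has both a late junction and a long 3′ UTR in some models, and its ratios to WT were 1.06, 0.886, and 0.900. *RDR1*, with a long 3′ UTR and an upstream reading frame in its only model, was at 1.08, 0.972, and 1.43 times WT, whereas the genes without any feature included both *RDR6*, the lowest ratio of all, and *AGO4*, at 1.2, 1.08, and 1.17 times.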

How the data were processed

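The deposited table lists, for every locus and pair of libraries, the FPKM that the authors obtained with Cufflinks and Cuffdiff, given as the sum over both libraries, and the deposited fold ratio of the higher to the lower FPKM with its direction. Its q-values are the authors' own comparisons and were not used. Reads had been aligned with TopHat and Bowtie 2 to TAIR10. The labels name a stranded mRNA kit, the methods a stranded total RNA kit. The table names the double mutant library NMD2, which was assigned by elimination. Column values that matched no sample numbered 0.

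Each library's FPKM was recovered from sum, fold, and direction, and averaged over its pairs, weighted by rounding error. The 40 values of the 10 genes each rest on 3 estimates, which differed by at most 0.423%. The recovery was tested on simulated data. Ratios use no pseudocount. Loci were called at 2-fold with 1 FPKM or more in at least 1 library. No p-value was computed, because there is 1 library per genotype, and depth is unknown. The members and lists were chosen with earlier results of these data known. All members are named, as are genes of the pathway and defence lists that were called in a mutant or that are partners, precursors, or targets of a member. Tissue markers are given as sums, and the root markers also singly.

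Alternatives were pseudocounts of 1 and 0.1, scaling to the median ratio, the 75th percentile, or the reference genes *PP2AA3* and *SAND*, other filters, folds of 1.5 and 4, values from a single pair, and annotated genes only. Gene models and sequences come from TAIR10.1 of RefSeq, whose nuclear sequence is that of TAIR10. MicroRNA matches were sought in the spliced transcripts, allowing 1 extra mRNA base and counting wobble pairs of G and U as mismatches. Python 3.11.15, NumPy 2.4.6, pandas 2.3.3, and matplotlib 3.10.9 were used.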

Additional observations from a re-analysis of the deposited data

Results flagged for a closer look

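The difference that a mutation made was in opposite directions in 2 backgrounds, by at least 1.2-fold each, for 3 Dicer genes with *upf1-5* and 2 with *upf3-1*, as it was at 15.0% and 9.97% of all loci. For *upf1-5*, the ratio in the *upf3-1* background over that in WT was 1.75 for *DCL1*, 2.46 for *DCL3*, and 1.76 for *DCL4*, the first ratio being above 1 and the second below. Under other scalings, *DCL1* (0.839 in WT) and *DCL4* (1.197 in *upf3-1*) came short of 1.2-fold. For *upf3-1*, it was 1.75 for *DCL1* and 2.46 for *DCL3*, which are the same numbers by construction. These differences were not tested, as each rests on 4 libraries without replicates.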

How the results depend on the processing

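None of the 10 genes was called at 2-fold under any alternative, and of 360 ratios recomputed under alternatives, 0 moved by 1.5 times or more. The direction turned with the scaling in 4 of 60 ratios, all within 1.03-fold of 1 as reported: *AGO2* in the double mutant over *upf3-1*, *AGO4* in the double mutant over *upf1-5*, *DCL1* in the double mutant over WT, and *RDR1* in *upf3-1* over WT. Scaling to the reference genes shifted all log2 ratios of the double mutant to WT by 0.12. Shares of all loci called moved more. With a pseudocount of 1, they were 5.26% for *upf1-5* over WT, 9.12% for the double mutant over *upf1-5*, 6.93% for the double mutant over *upf3-1*, and 8.97% for *upf3-1* over *upf1-5*. With 1 FPKM required in both libraries, they were 6.10% for *upf1-5* over WT and 7.44% for the double mutant over *upf3-1*. At 1.5-fold, they were 21.4%, 40.4%, and 40.6% for *upf1-5*, *upf3-1*, and the double mutant over WT, with 0, 2, and 1 of the 10 genes called, and 31.8%, 24.4%, and 31.4% for the double mutant over *upf1-5*, the double mutant over *upf3-1*, and *upf3-1* over *upf1-5*, with 3, 1, and 3 genes called. At 4-fold, the shares were 2.60%, 6.48%, 7.16%, 3.71%, 3.32%, and 3.55% in the same order. No paired analysis was possible because each genotype has 1 library. Values near or below 1 FPKM, such as those of *AGO3*, *AGO6*, *TAS4*, *SARD1*, and *PR2*, are the least certain, and the spread between seedling pools is unknown.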
